A study of Mus musculus with 10 samples.

Results

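Cytochrome P450 genes of families 1 to 4 were described in the terminal ileum of mice after repeated mild social defeat. Members were the genes whose symbol in the platform annotation was Cyp followed by a family number from 1 to 4, a subfamily letter and a gene number, and each was read from the probe set whose mean over the 10 arrays was highest. This gave 56 of the 18193 genes named on the array, with 69 probe sets in all. Of these, 28 had a mean above 4.15 on the log2 scale, the value under which the lowest 40 percent of probe sets lay, and only these entered the tests.

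P450 enzymes are haem proteins of the endoplasmic reticulum that insert 1 atom of oxygen into their substrates, with electrons passed on by the reductase Por. Families 1 to 3 oxidise drugs, plant compounds and toxins and also act on fatty acids and steroids, while many members of family 4 hydroxylate fatty acids and eicosanoids at the end of the chain. In the intestine they lie mainly in absorptive enterocytes, where they form part of first-pass metabolism. Many are induced through ligand-sensing factors, such as the Ah receptor for Cyp1a1, the pregnane X receptor Nr1i2 for Cyp3a11, the receptor Nr1i3 (CAR) for Cyp2b10 and Ppara for the Cyp4a genes.

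All mice were males of the strain C57BL/6JJmsSlc, 7 weeks of age per the labels, housed singly at first, fed the purified AIN-93G diet and fasted for 3 h before the lower small intestine was taken. The 5 control mice are labelled only as controls. The 5 stressed mice met an aggressive ICR resident each day for 10 days, with 5 min of contact after the first bite on day 1, 0.5 min less each day, and 0.5 min on day 10. Each mouse gave 1 Affymetrix array, so n counts mice, and the labels give no sort or dissection of layers. In such bulk tissue, fewer cells of a type and less RNA per cell cannot be told apart.

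The array of control mouse 1 stood apart and its ileal markers were low. Across genes it correlated with the other arrays at 0.918 to 0.947, against 0.975 to 0.995 among those 9. Its bile acid binding protein Fabp6, which marks the ileum, was at 7.88, against 13.88 to 14.10 in the other 9 mice. The mean of 10 absorptive enterocyte markers was 8.10 in control mouse 1, 11.69 to 11.90 in the other controls and 11.65 to 12.05 in stressed mice. Of 14 large intestine markers, 4 (Car1, Aqp8, Hoxd10 and Gsdmc2) were at least 1 unit higher in control mouse 1 than in any other control, and the same number were at least 1 unit higher in stressed mouse 4 than in any other stressed mouse. The mean of the 14 was 6.40 in control mouse 1 and 5.86 in stressed mouse 4, against 5.04 to 5.15 in the other controls and 4.77 to 5.07 in the other stressed mice. Car1, the carbonic anhydrase of the colon, was at 14.17, 7.06, 5.27, 5.46 and 4.95 in control mice 1 to 5 and at 7.41, 4.95, 5.73, 13.32 and 5.74 in stressed mice 1 to 5. Results are therefore given for all 10 arrays, without control mouse 1, and without both of these mice. RNA from stressed mouse 1 had a log2 ratio of 3' to 5' control probe sets of 1.13, against 0.45 to 0.70 in the other mice.

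Other marker sets also moved with a mouse or with the groups. Control mouse 5 had a mean of 7 exocrine pancreas markers of 6.61, against 4.52 to 4.78 in the other mice, and a mean of 11 B cell and Peyer patch markers of 5.87. That B cell mean was 4.79 to 5.01 in controls 2 to 4 and 4.62 to 4.75 in stressed mice, below each of controls 2 to 5, and of its 11 markers Cd79b alone separated these groups. The mean of 7 distal ileum markers was 10.61 to 10.88 in controls 2 to 5 and higher, 10.89 to 11.36, in stressed mice. Of these 7, Fabp6, Fgf15 and Cubn were higher in every stressed mouse than in controls 2 to 5, Fabp6 at 13.95 to 14.10 against 13.88 to 13.93. Fgf15 differed most, at 8.37 to 9.42 against 6.31 to 8.03. Slc10a2 and Slc51b went the other way, with means of 9.67 and 11.56 in stressed mice against 9.77 and 11.73 in those controls. The mean of 8 liver markers lay between 3.84 and 4.21 on every array. How far the B cell and distal ileum markers account for the P450 differences without control mouse 1 was not tested. With control mouse 5 left out as well, 7 members were at an unadjusted p under 0.05, against 18.3% of all genes.

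No P450 member was called in any of the 3 comparisons, and without control mouse 1 the members that differed most were higher in stressed mice. With all 10 arrays limma called 0 of 28 members at a Benjamini-Hochberg adjusted p under 0.05, as it called 0.0% of the 13666 genes tested. At an unadjusted p under 0.05, 2 members were higher (Cyp4f16 and Cyp2u1), against 3.86% of all genes, and 0 were lower, against 3.96%. Without control mouse 1 limma again called 0 of 28, where it called 0.798% of all genes. In that comparison 8 members were higher at an unadjusted p under 0.05, against 11.4% of all genes (Cyp2c55, Cyp2c65, Cyp2d26, Cyp2e1, Cyp2j9, Cyp2u1, Cyp3a25 and Cyp4f16). Cyp2b10 and Cyp2c54 were lower at that level, which makes 2 members against 6.56% of all genes. With stressed mouse 4 also left out, limma called 0 of 28 members and 0.0439% of all genes. The count at an unadjusted p under 0.05 then went from 10 to 5, of which 4 were higher (Cyp2c55, Cyp2d26, Cyp2j9 and Cyp2u1, against 7.71% of all genes) and 1 was lower (Cyp2b10, against 5.11%).

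The direction of small differences depended in part on control mouse 1. With 10 arrays, 17 of the 28 members had a higher mean in stressed mice, against 50.9% of all genes, and the median difference, stressed minus control, was 0.11 on the log2 scale, against 0.00 over all genes. Without control mouse 1 these were 19 of 28, against 56.2%, and 0.17, against 0.03. Cyp1b1, Cyp2d22, Cyp2d34 and Cyp2s1 differed in opposite directions in these 2 comparisons. A total of 16 members had a higher mean in stressed mice in all 3 comparisons.

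**Figure D1:**
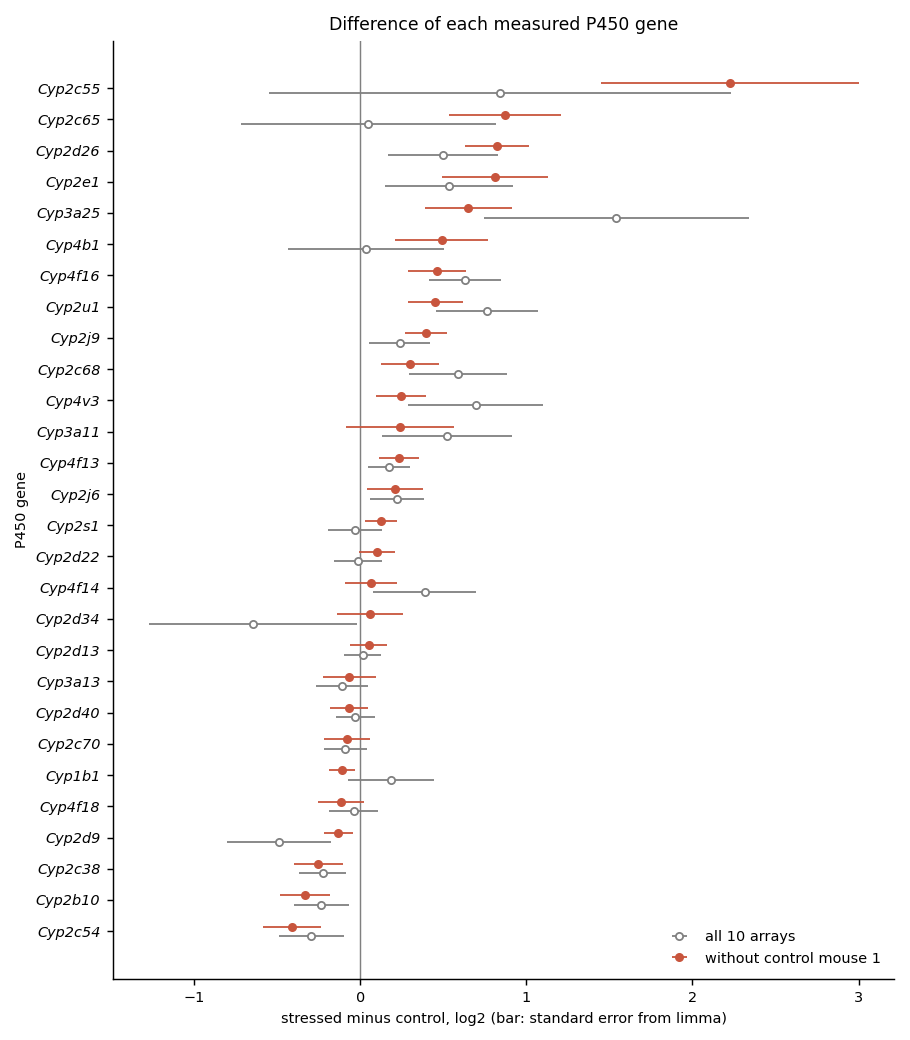
Difference between stressed and control mice on the log2 scale (x axis) for each of the 28 P450 genes above the floor (y axis), with all 10 arrays (open grey points) and without control mouse 1 (filled red points), and bars for the standard error from limma. Cyp2c55 lies farthest to the right without control mouse 1, at 2.23, and the wide grey bars belong to genes that differed most in that mouse.

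Cyp2c55, an enzyme that hydroxylates arachidonic acid, had the largest difference of any member without control mouse 1. It was at 13.05, 6.17, 6.51, 6.10 and 5.78 in control mice 1 to 5 and at 6.77, 7.17, 7.63, 11.62 and 8.63 in stressed mice 1 to 5. Apart from control mouse 1, every stressed mouse was above every control, a pattern held by 4.51% of all genes, while the reverse was held by 2.72% of them and by 0 members. The group means were 6.14 ± 0.30 (SD, n = 4) and 8.36 ± 1.95 (SD, n = 5), a 4.68-fold difference of 2.23 ± 0.78 (SE) on the log2 scale with a limma adjusted p of 0.172. Stressed mouse 4 was far above the other stressed mice, and without it as well the difference was 1.41 ± 0.33 (SE), with a limma adjusted p of 0.137. With the large intestine marker mean as a covariate the difference among 9 arrays was 2.18, with a limma adjusted p of 0.0698. Among these arrays that mean was raised in stressed mouse 4 alone. The covariate thus rests on that mouse, and the fit does not measure how far these markers account for the difference. Without control mouse 5 in place of stressed mouse 4 the difference was 2.11, with a limma adjusted p of 0.235. With all 10 arrays the groups overlapped and the difference was 0.84 ± 1.39 (SE), with a limma adjusted p of 0.915.

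Cyp2c65, a gene of the same cluster on chromosome 19, followed a like order of mice over a narrower range. It was at 12.13, 7.71, 8.48, 8.17 and 7.71 in control mice 1 to 5 and at 7.88, 8.50, 8.75, 9.82 and 9.48 in stressed mice 1 to 5. Stressed mice 2 to 5 were above controls 2 to 5, mouse 2 by little, while stressed mouse 1 lay inside the range of those controls. The difference was 0.87 ± 0.34 (SE) without control mouse 1 (limma adjusted p 0.208), and 0.64 ± 0.30 (SE) without stressed mouse 4 as well. Its probe set carries the suffix that the manufacturer gives to sets that match several transcripts, so signal from a close paralog cannot be told apart. Of the other Cyp2c genes above the floor, Cyp2c68 had a difference of 0.59 ± 0.30 (SE) over all mice, which became 0.30 ± 0.18 (SE) when control mouse 1 was left out. Cyp2c54, which forms epoxides of arachidonic and linoleic acid, had a mean of 4.93 ± 0.43 (SD, n = 4) in controls 2 to 5 and a lower one of 4.52 ± 0.19 (SD, n = 5) after stress. Control mouse 3 was highest, at 5.54, and stressed mice lay between 4.22 and 4.70. The difference was -0.41 ± 0.18 (SE), with a limma adjusted p of 0.250, and -0.34 ± 0.18 (SE) without stressed mouse 4 as well. When each further mouse was left out in turn, the difference of Cyp2c54 ran from -0.52 to -0.21. Cyp2c38 and Cyp2c70, the latter the enzyme that makes muricholic acids in the mouse, differed by -0.25 and -0.08.

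Cyp2d26 had the smallest adjusted p of the members without control mouse 1, whereas Cyp4f16 had it with 10 arrays and Cyp2c55 without stressed mouse 4 as well. This gene of the subfamily that holds the human drug-metabolising enzyme CYP2D6 was at 10.64, 8.85, 9.28, 9.16 and 8.81 in control mice 1 to 5 and at 9.37, 9.41, 10.03, 10.16 and 10.26 in stressed mice 1 to 5. All 5 stressed mice were above controls 2 to 5, mice 1 and 2 only just, and all were below control mouse 1. Group means without control mouse 1 were 9.02 ± 0.23 (SD, n = 4) and 9.85 ± 0.42 (SD, n = 5). The difference was 0.82 ± 0.19 (SE) with a limma adjusted p of 0.0669, and 0.74 ± 0.20 (SE) with an adjusted p of 0.164 without stressed mouse 4 as well. Without control mouse 5 in its place the difference was 0.75, with a limma adjusted p of 0.113. The limma adjusted p was 0.0458 with array weights and 0.0449 without stressed mouse 2, and over the alternatives other than a replicate block it ran from 0.0449 to 0.164. With 10 arrays the difference was 0.50 ± 0.33 (SE) and control mouse 1 had the highest value of all. The differences of Cyp2d9, Cyp2d13, Cyp2d22, Cyp2d34 and Cyp2d40 lay between -0.13 and 0.10 without control mouse 1. With 10 arrays that of Cyp2d34 was -0.64 ± 0.63 (SE). This gene was at 8.31 in that mouse and at 4.40 to 5.52 in the other 9 mice, and Cyp2d9 was at 6.54 there and at 4.53 to 4.93 elsewhere.

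Cyp4f16 and Cyp2u1 were the members at an unadjusted p under 0.05 with all 10 arrays and also without control mouse 1. Cyp4f16, of a subfamily that hydroxylates leukotrienes and long-chain fatty acids, was at 8.23, 9.10, 9.21, 8.85 and 9.12 in control mice 1 to 5 and at 9.06, 9.24, 9.95, 9.87 and 9.54 in stressed mice 1 to 5. Stressed mice 2 to 5 were above every control, mouse 2 only just, and stressed mouse 1 lay within the control range. The difference was 0.63 ± 0.22 (SE) with 10 arrays, 0.46 ± 0.17 (SE) without control mouse 1 and 0.38 ± 0.17 (SE) without stressed mouse 4 as well, with limma adjusted p of 0.497, 0.198 and 0.394. A second probe set of this gene differed by 0.55 with 10 arrays and 0.35 without control mouse 1, and 1 that matches both Cyp4f16 and Cyp4f37 by 0.63 and 0.45.

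Cyp2u1, which hydroxylates long-chain fatty acids, was at 4.57, 5.78, 5.96, 6.59 and 6.19 in control mice 1 to 5 and at 6.46, 6.34, 6.66, 6.46 and 6.99 in stressed mice 1 to 5. Control mouse 1 was lowest, and control mouse 4 lay within the stressed range. The difference was 0.76 ± 0.31 (SE) with 10 arrays, 0.45 ± 0.17 (SE) without control mouse 1 and 0.48 ± 0.18 (SE) without stressed mouse 4 as well, at limma adjusted p of 0.591, 0.193 and 0.308. The second probe set of Cyp2u1 differed by 0.36 and 0.20 in the first 2 of these comparisons.

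The promoters of Cyp2c55, Cyp2c65, Cyp2d26 and Cyp4f16 are shown because the results turn on these genes. Each is taken from RefSeq and is the 250 bases before the annotated start in build GRCm38.p6, read 5′ to 3′ on the strand of the gene, and capitals mark matches to the motifs searched. Cyp2c55 lies at chr19:39006769-39007018, plus strand, Cyp2c65 at chr19:39060756-39061005, plus strand, Cyp2d26 at chr15:82794246-82794495, minus strand and Cyp4f16 at chr17:32536307-32536556, plus strand.
Cyp2c55: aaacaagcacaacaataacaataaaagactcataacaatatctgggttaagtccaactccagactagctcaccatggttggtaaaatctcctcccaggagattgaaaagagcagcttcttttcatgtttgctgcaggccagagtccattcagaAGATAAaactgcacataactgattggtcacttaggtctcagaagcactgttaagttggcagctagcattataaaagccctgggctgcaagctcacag
Cyp2c65: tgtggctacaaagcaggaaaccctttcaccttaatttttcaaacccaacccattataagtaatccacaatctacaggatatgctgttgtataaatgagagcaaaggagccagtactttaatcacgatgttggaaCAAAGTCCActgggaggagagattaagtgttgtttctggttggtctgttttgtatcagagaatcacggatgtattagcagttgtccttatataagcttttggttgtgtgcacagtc
Cyp2d26: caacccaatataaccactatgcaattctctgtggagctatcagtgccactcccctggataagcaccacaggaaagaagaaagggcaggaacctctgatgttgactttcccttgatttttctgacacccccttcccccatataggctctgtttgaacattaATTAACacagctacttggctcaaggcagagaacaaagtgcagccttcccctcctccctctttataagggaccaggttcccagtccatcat
Cyp4f16: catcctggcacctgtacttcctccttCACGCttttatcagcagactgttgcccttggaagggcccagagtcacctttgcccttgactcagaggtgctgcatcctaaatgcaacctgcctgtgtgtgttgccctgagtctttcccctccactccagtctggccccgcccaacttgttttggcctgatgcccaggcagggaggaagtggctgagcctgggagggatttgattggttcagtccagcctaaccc

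A set of 5 motifs was searched on both strands. AGGTCA is a half-site of nuclear receptors, and the core bound by the Ah receptor is GCGTG. The factor HNF1 binds sites that hold the half-site GTTAAT. Intestinal GATA factors bind AGATAA. The HNF4 site CAAAGTCCA was added after the sequences had been read. Its count among members was shaped by that choice and cannot be weighed against its share of all promoters. No marked matches overlap one another. AGATAA stood 97 bases before the start of Cyp2c55, CAAAGTCCA 116 bases before that of Cyp2c65, GTTAAT on the opposite strand 90 bases before that of Cyp2d26, and GCGTG on the opposite strand 224 bases before that of Cyp4f16. Of all 32851 promoters in the table, AGGTCA was in 14.0%, GCGTG in 28.2%, GTTAAT in 6.43%, AGATAA in 9.99% and CAAAGTCCA in 0.384%. Among the 23 members above the floor that have a promoter in the table, these 5 motifs were in 3, 7, 3, 4 and 4. The CAAAGTCCA matches were in Cyp2c65, Cyp2c68, Cyp2c70 and Cyp3a11, and the AGGTCA matches in Cyp2c70, Cyp3a11 and Cyp3a25. Cyp2c65, Cyp2c68 and Cyp2c70 are related genes of the same subfamily on chromosome 19, so their matches are not independent. A match is a string of letters in this window and was not tested as a binding site.

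**Figure D2:**
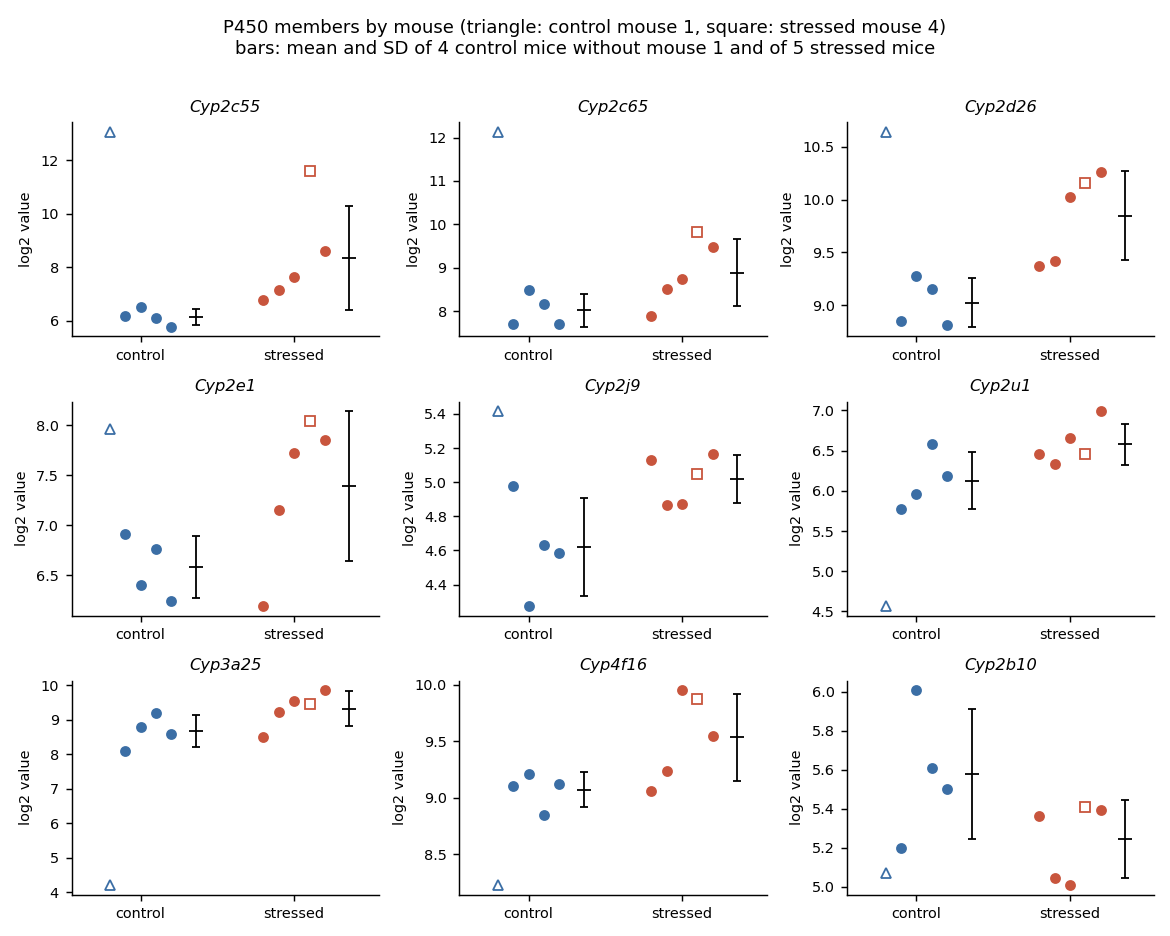
Log2 value (y axis) of 9 P450 genes in each of 5 control (blue) and 5 stressed (red) mice, with control mouse 1 as an open triangle, stressed mouse 4 as an open square, and bars for the mean and SD of the 4 other controls and of all 5 stressed mice. For Cyp2c55 and Cyp2d26 all stressed mice lie above controls 2 to 5, and for Cyp3a25 and Cyp2u1 control mouse 1 lies far below every other mouse.

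Of the other family 2 genes, Cyp2e1 and Cyp2j9 were higher at an unadjusted p under 0.05 without control mouse 1. Cyp2e1, which oxidises ethanol and small solvents, was at 7.96, 6.91, 6.40, 6.76 and 6.25 in control mice 1 to 5 and at 6.19, 7.15, 7.73, 8.04 and 7.85 in stressed mice 1 to 5. Stressed mouse 1 had the lowest value of all 10 mice, whereas the 4 other stressed mice were above controls 2 to 5. The difference without control mouse 1 was 0.81 ± 0.32 (SE), with a limma adjusted p of 0.215, and with 10 arrays it was 0.54 ± 0.39 (SE). Cyp2j9, of a subfamily that forms epoxides of arachidonic acid, had means of 4.62 ± 0.29 (SD, n = 4) and 5.02 ± 0.14 (SD, n = 5). Its difference of 0.40 ± 0.13 (SE) became 0.39 ± 0.14 (SE) without stressed mouse 4 as well, and 0.24 ± 0.18 (SE) with 10 arrays, where control mouse 1 was highest at 5.42. Its limma adjusted p in these 3 comparisons was 0.146, 0.288 and 0.796. Cyp2j6 differed by 0.21 ± 0.17 (SE) without control mouse 1, with stressed mouse 5 highest at 9.01, and its second probe set by 0.33.

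Cyp2b10, the target gene of CAR, had a lower mean in stressed mice in all 3 comparisons. It was at 5.07, 5.20, 6.01, 5.61 and 5.50 in control mice 1 to 5 and at 5.36, 5.05, 5.01, 5.41 and 5.39 in stressed mice 1 to 5. The groups overlapped, and control mouse 3 was highest, as it was for Cyp2c54 and Cyp2c38. The difference was -0.33 ± 0.15 (SE) without control mouse 1 and -0.23 ± 0.17 (SE) with 10 arrays, at limma adjusted p of 0.272 and 0.787. Without control mouse 1 and each further mouse in turn, it ran from -0.46 to -0.19. The other probe sets of Cyp2b10, both with means under the floor, differed by -0.044 and -0.021 without control mouse 1. Cyp2s1, an enzyme of epithelia outside the liver, was at 8.02 ± 0.11 (SD, n = 4) and 8.15 ± 0.17 (SD, n = 5), a difference of 0.12 ± 0.10 (SE).

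In family 3, Cyp3a25 and Cyp3a11 had a higher mean in stressed mice in all 3 comparisons and Cyp3a13 a lower one. The groups overlapped for each of these genes. Cyp3a25 was at 4.21, 8.08, 8.79, 9.20 and 8.59 in control mice 1 to 5 and at 8.51, 9.23, 9.54, 9.46 and 9.85 in stressed mice 1 to 5. Control mouse 1 was far below every other mouse, and stressed mouse 1 lay within the range of the other controls. The difference was 1.54 ± 0.80 (SE) with 10 arrays and 0.65 ± 0.26 (SE) without control mouse 1, with limma adjusted p of 0.700 and 0.223. Cyp3a11, the main drug-inducible Cyp3a enzyme of the mouse, was at 5.18, 5.87, 6.83, 7.64 and 6.01 in control mice 1 to 5 and at 6.41, 6.68, 6.80, 6.78 and 7.47 in stressed mice 1 to 5. All 5 stressed values lay inside the range of controls 2 to 5, which was set by mice 2 and 4, and the difference was 0.24 ± 0.33 (SE) without control mouse 1. Cyp3a13 was at 10.12 ± 0.14 (SD, n = 4) in those controls and 10.05 ± 0.35 (SD, n = 5) in stressed mice, with a difference of -0.06 ± 0.16 (SE).

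Among the other family 4 genes, no difference reached an unadjusted p of 0.05. Cyp4b1 was at 10.78, 8.21, 8.74, 8.65 and 8.41 in control mice 1 to 5 and at 8.05, 8.74, 8.94, 9.57 and 9.65 in stressed mice 1 to 5. Stressed mice 4 and 5 were high and stressed mouse 1 was the lowest of all, with a difference of 0.49 ± 0.28 (SE) without control mouse 1 and 0.03 ± 0.47 (SE) with 10 arrays. Cyp4v3, a fatty acid hydroxylase whose human counterpart is mutated in a corneal and retinal dystrophy, had a difference of 0.69 ± 0.41 (SE) over all mice and 0.25 ± 0.15 (SE) when control mouse 1 was left out. That mouse was at 7.40 and the others were at 9.34 to 10.25. Its second probe set gave 0.72 and 0.25. Cyp4f14, which inactivates leukotriene B4, differed by 0.06 ± 0.16 (SE), Cyp4f13 by 0.24 ± 0.12 (SE) and Cyp4f18, known from myeloid cells, by -0.12 ± 0.14 (SE). In family 1, Cyp1b1, an enzyme found mostly outside the liver, was at 5.93 ± 0.09 (SD, n = 4) in controls 2 to 5 and 5.82 ± 0.10 (SD, n = 5) after stress, a difference of -0.11 ± 0.08 (SE).

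A group of 28 members had means under the floor and was not tested. In 23 of them every array was under 4.15, among them the Ah receptor target Cyp1a1, at 3.30 to 3.71, Cyp1a2, the steroid and drug hydroxylase Cyp3a16, the lung enzyme Cyp2f2 and the vitamin D hydroxylase Cyp2r1. The others of these 23 were Cyp2b9, Cyp2b13, Cyp2b19, Cyp2c23, Cyp2c29, Cyp2c37, Cyp2c39, Cyp2c50, Cyp2g1, Cyp2j5, Cyp2j13, Cyp3a44, Cyp4a12a, Cyp4a14, Cyp4f15, Cyp4f39, Cyp4f41-ps and Cyp4x1. Another 5 had at least 1 array above it (Cyp2a12, Cyp2d10, Cyp2d12, Cyp2j11 and Cyp4a31). Cyp2d10 was at 8.00, 3.86, 3.64, 3.71 and 3.56 in control mice 1 to 5 and at 3.31, 3.16, 3.61, 3.77 and 3.49 in stressed mice 1 to 5. It was thus above the floor in control mouse 1 alone, and stressed mouse 4 was not set apart from the rest. Cyp2d12 was likewise highest in control mouse 1, at 4.91.

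Control mouse 1 differed from the other mice in both directions across the family. Of the 28 members above the floor it was above all other mice in 9, against 34.6% of all genes, and below them in 8, against 18.6%. In 14 members it differed by at least 1 unit from the mean of the other controls, against 8.41% of all genes. Cyp2c55 (6.91 higher), Cyp2c65 (4.11 higher), Cyp2d34 (3.53 higher) and Cyp4b1 (2.28 higher) led on one side. Cyp3a25 and Cyp4v3 led on the other, with deviations of -4.45 and -2.24. Stressed mouse 4 differed by at least 1 unit from the mean of the other stressed mice in 2 members, against 0.256% of all genes, and these were Cyp2c55 (4.07 higher) and Cyp2c65 (1.16 higher). Cyp2d34 was 0.86 higher there, but Cyp2d9, 1.78 higher in control mouse 1, was 0.10 lower, and Cyp3a25 was 0.18 higher. The deviations of the 2 mice correlated at r = 0.755 across the 28 members and at r = 0.414 across all genes, which share arrays and are not independent. The r of the members leans on Cyp2c55 and Cyp2c65, genes of the same cluster, and was not computed without them. The 2 deviations had the same sign in 16 of the 28 members, against 64.6% of all genes. How far the large intestine markers of these 2 mice account for their P450 values was not tested. The fits with the marker mean as a covariate rest on these 2 mice and do not measure it.

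**Figure D3:**
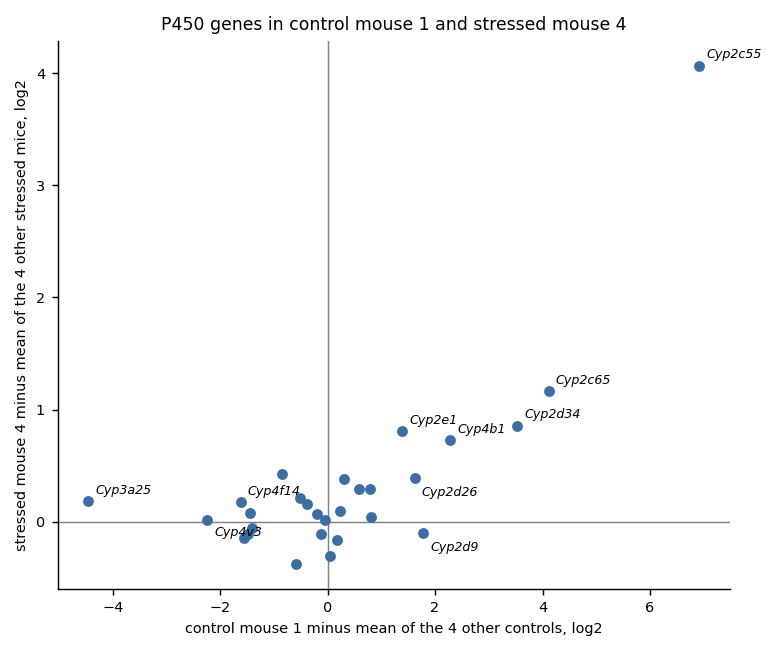
Deviation of control mouse 1 from the mean of the 4 other controls (x axis) and of stressed mouse 4 from the mean of the 4 other stressed mice (y axis), both on the log2 scale, with 1 point for each of the 28 P450 genes above the floor. Cyp2c55 and Cyp2c65 are raised in both mice, whereas Cyp3a25 and Cyp4v3 are far lower in control mouse 1 and near 0 in stressed mouse 4.

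Stressed mice also differed among themselves along the family. Stressed mouse 1 was the lowest of its group in 16 of the 28 members, against 25.8% of all genes, and stressed mouse 5 the highest in 13, against 18.8%. Stressed mouse 1 was also the mouse with the high 3' to 5' ratio, and its smooth muscle marker mean of 10.89 was the highest of its group, against 9.93 to 10.47. Its absorptive enterocyte and distal ileum marker means, 11.65 and 10.89, were the lowest of the group. Those of stressed mouse 5, 12.05 and 11.36, were the highest. How far these account for the P450 values of the 2 mice was not tested, beyond the fits with the ratio as a covariate.

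Genes that regulate P450s or work beside them were read from lists of partners. Of 14 receptors and coregulators above the floor, 8 had a higher mean in stressed mice with 10 arrays and 11 without control mouse 1, against 50.9% and 56.2% of all genes, and limma called 0 and 1, against 0.0% and 0.798%. Nr1i2, the pregnane X receptor, was at 7.85, 7.95, 8.10, 7.88 and 7.96 in control mice 1 to 5 and at 8.17, 8.06, 8.13, 8.23 and 8.12 in stressed mice 1 to 5. Every stressed mouse but mouse 2 was above every control. The difference was 0.19 ± 0.07 (SE) with 10 arrays and 0.17 ± 0.07 (SE) without control mouse 1, at limma adjusted p of 0.536 and 0.243. Ppara, the fatty acid receptor, differed by 0.56 ± 0.14 (SE) without control mouse 1 (limma adjusted p 0.0746), and by 0.32 ± 0.25 (SE) with 10 arrays. The gene called was the coactivator Ppargc1a. It rose by 0.73 ± 0.11 (SE) without control mouse 1 (limma adjusted p 0.0245), and every stressed mouse was above controls 2 to 5. Without stressed mouse 4 as well the difference was 0.68 ± 0.11 (SE) and the limma adjusted p was 0.0694, and with 10 arrays the adjusted p was 0.730. The adjusted p was also above 0.05 without control mouse 2 (0.0666), control mouse 3 (0.0611), stressed mouse 3 (0.0592) or stressed mouse 5 (0.0592), in fits with 1 mouse fewer, where the difference was 0.66, 0.73, 0.73 and 0.69. Of 5 Ah receptor pathway genes 3 had a higher mean in each comparison, against 50.9% and 56.2% of all genes. For these 5, limma called 0 in each comparison, against 0.0% and 0.798% of all genes. Of the same genes 0 reached an unadjusted p of 0.05, against 7.82% and 18.0% of all genes.

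Among drug transporters, Abcb1a and Abcc2 differed by about 1 unit without control mouse 1. Of 12 above the floor, 7 had a higher mean in each comparison and limma called 0, and without control mouse 1, 5 were higher and 1 was lower at an unadjusted p under 0.05. Of all genes, 50.9% and 56.2% had a higher mean, and 11.4% were higher and 6.56% lower at that p without control mouse 1. The shares of all genes called were 0.0% and 0.798%. Abcb1a, the P-glycoprotein gene, was at 11.80, 10.09, 10.55, 10.13 and 11.22 in control mice 1 to 5 and at 11.29, 10.93, 11.65, 11.87 and 12.22 in stressed mice 1 to 5. Control mouse 5 lay above stressed mouse 2, and the other controls but mouse 1 were below all stressed mice. The difference was 1.09 ± 0.27 (SE) without control mouse 1 and 0.83 ± 0.34 (SE) with 10 arrays, with limma adjusted p of 0.0814 and 0.596. Abcc2, which exports glucuronide and glutathione conjugates, was at 3.52, 6.57, 6.67, 7.22 and 7.50 in control mice 1 to 5 and at 7.52, 7.41, 8.20, 8.33 and 8.75 in stressed mice 1 to 5. Control mouse 5 lay above stressed mouse 2, and the other controls were below all stressed mice. The difference was 1.05 ± 0.28 (SE) and 1.75 ± 0.65 (SE), at limma adjusted p of 0.0918 and 0.536. Abcg2, the transporter of urate and many drugs, differed the other way without control mouse 1, by -0.36 ± 0.14 (SE). Abcc4 and Abcc6 differed by 0.23 ± 0.10 (SE) and 0.24 ± 0.12 (SE).

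Most oxidising, reducing and ester-cleaving enzymes of another list had a higher mean in stressed mice. Of that list, limma called 0 in each comparison, against 0.0% and 0.798% of all genes. Of 24 flavin monooxygenases, dehydrogenases, esterases and aldo-keto reductases, 16 had a higher mean with 10 arrays and 21 without control mouse 1, against 50.9% and 56.2% of all genes, with a median difference of 0.17 and 0.20, against 0.00 and 0.03 over all genes. Fmo5, the flavin monooxygenase of liver and gut, was at 8.70 to 9.30 in controls and at 9.22 to 9.92 in stressed mice. Every stressed mouse was above controls 2 to 5, and the difference was 0.68 ± 0.15 (SE) without control mouse 1 (limma adjusted p 0.0636), and 0.61 ± 0.16 (SE) with 10 arrays. Adh1 and Akr1c13 differed by 0.32 ± 0.12 (SE) and 0.43 ± 0.16 (SE) without control mouse 1. With 10 arrays these were -0.12 ± 0.39 (SE) and 0.16 ± 0.28 (SE). Of 15 redox partners and haem synthesis genes, 11 and 8 had a higher mean in the 2 comparisons, against 50.9% and 56.2% of all genes. Of these 15, limma called 0 in both, against 0.0% and 0.798% of all genes. The haem pathway enzyme Urod differed by 0.24 ± 0.09 (SE) and 0.30 ± 0.08 (SE), at limma adjusted p of 0.554 and 0.107.

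Among 17 fatty acid genes that respond to Ppara, 13 had a higher mean with 10 arrays and 15 without control mouse 1, and 4 of them were at an unadjusted p under 0.05 in the latter, all higher, against 11.4% of all genes, while limma called 0. The shares of all genes with a higher mean were 50.9% and 56.2%, and the shares called were 0.0% and 0.798%. Plin2, a coat protein of lipid droplets, differed by 0.46 ± 0.12 (SE) there, with every stressed mouse above controls 2 to 5, and by 0.27 ± 0.20 (SE) with 10 arrays. Acaa1b, a peroxisomal thiolase, and the fatty acid carrier Cd36 differed by 1.32 ± 0.47 (SE) and 0.32 ± 0.12 (SE) without control mouse 1. The Cyp4a members, induced through the same receptor in liver, were all under the floor. Of 10 epoxide hydrolase and arachidonate genes, 5 and 6 had a higher mean in the 2 comparisons, against 50.9% and 56.2% of all genes. Of these 10, limma called 0 in both, against 0.0% and 0.798% of all genes. Ptgs2 (cyclooxygenase 2) was at 5.63, 5.94, 4.61, 5.02 and 5.61 in control mice 1 to 5 and at 6.17, 6.32, 6.14, 6.41 and 5.74 in stressed mice 1 to 5. Stressed mouse 5 lay below control mouse 2, and the other stressed mice were above every control. The difference was 0.79 ± 0.23 (SE) over all mice and 0.86 ± 0.23 (SE) without control mouse 1, at limma adjusted p of 0.408 and 0.1002. The lipoxygenases Alox5 and Alox15 differed by -0.30 ± 0.11 (SE) and -0.29 ± 0.11 (SE) with 10 arrays.

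Of 11 P450 genes outside families 1 to 4, 5 had a higher mean with 10 arrays and 6 without control mouse 1. The shares of all genes were 50.9% and 56.2%. Of these 11, limma called 0 in both, against 0.0% and 0.798% of all genes. Tbxas1, thromboxane synthase, was at 5.90, 5.81, 6.00, 5.63 and 5.64 in control mice 1 to 5 and at 5.48, 5.51, 5.45, 5.17 and 5.44 in stressed mice 1 to 5. Every stressed mouse was below every control with all 10 arrays, a pattern held by 1.12% of all genes. The difference was -0.39 ± 0.10 (SE), and -0.36 ± 0.10 (SE) without control mouse 1, at limma adjusted p of 0.345 and 0.105. The oxysterol hydroxylase Cyp7b1 differed by 0.49 ± 0.15 (SE) and 0.46 ± 0.16 (SE), at limma adjusted p of 0.444 and 0.168. Cyp27a1 and Cyp39a1 differed by 0.35 ± 0.16 (SE) and 0.25 ± 0.10 (SE) without control mouse 1. With 10 arrays the difference of Cyp39a1 had the opposite sign.

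**Figure D4:**
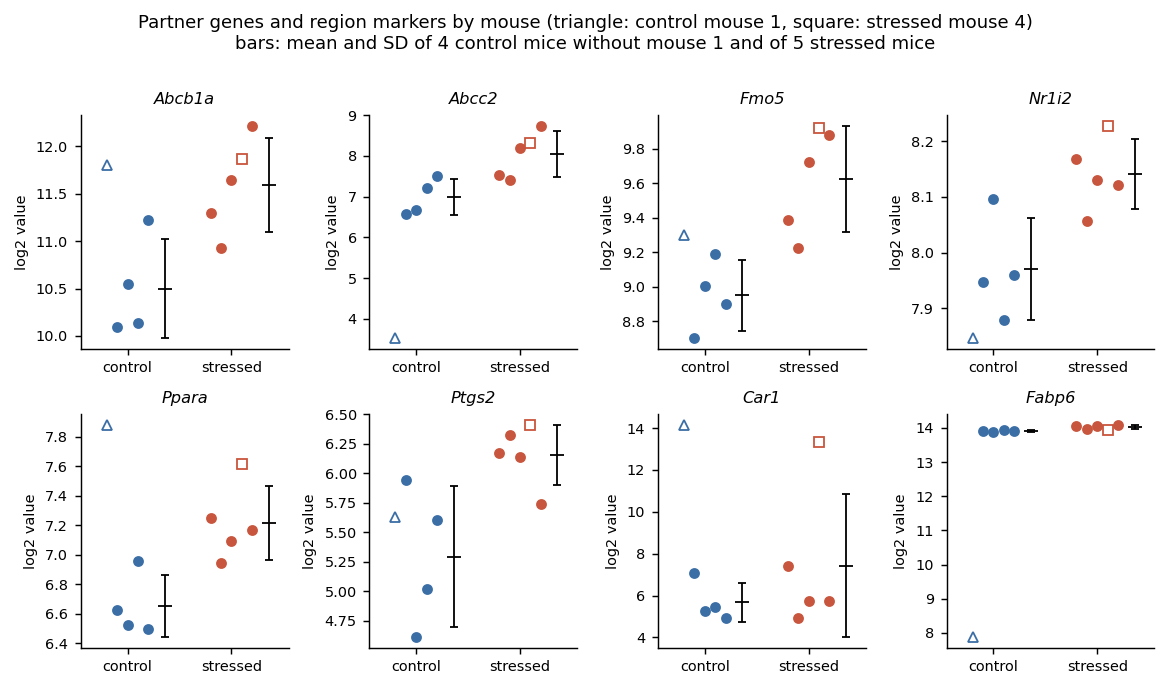
Log2 value (y axis) of 6 partner genes, the colon marker Car1 and the ileum marker Fabp6 in each of 5 control (blue) and 5 stressed (red) mice, with control mouse 1 as an open triangle, stressed mouse 4 as an open square, and bars for the mean and SD of the 4 other controls and of all 5 stressed mice. Car1 is high in control mouse 1 (14.17) and stressed mouse 4 (13.32), while Fabp6 is low in control mouse 1 alone (7.88).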

How the data were processed

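Gene expression was measured on 10 Affymetrix 3' IVT arrays, 1 per mouse, from 100 ng of total RNA. The authors deposited log2 values made with RMA, per the submitters' processing notes, which summarise probes and bring arrays to a common distribution. The base of 2 was taken from the range of the values, 1.22 to 14.37, and from RMA's usual output. The software version is not given in the sources used here. The number of arrays limits the precision. Nothing in the labels says more of how samples were drawn than 1 mouse each, so p-values measure the spread between these samples.

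Of 45101 probe sets, 34945 had 1 gene symbol, 932 several and 9160 none, besides 64 control sets. Each gene was read from its probe set with the highest mean, and the lowest 40 percent of probe sets were left out, which left 13666 genes. Groups were compared with limma 3.58.1 in R 4.3.3 (lmFit and eBayes, two-sided, Benjamini-Hochberg over all genes), tested on simulated data, and a gene was called at an adjusted p under 0.05. Named members were those at an unadjusted p under 0.05, with groups that did not overlap, or with a difference of at least 0.5, and else 1 per subfamily. Partner genes are printed where they were among the smallest p of their list and at an unadjusted p under 0.05 in either comparison. Members and lists were chosen with earlier results of these data known. Promoters came from RefSeq (GRCm38.p6), which held 43 of the 56 members. Alternatives covered the filter, probe set choice, normalization, variance prior, array weights, covariates, a replicate block and leaving out each mouse. No 2 arrays held identical values.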

Additional observations from a re-analysis of the deposited data

Results flagged for a closer look

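Among 117 groups of values over 39 genes, 20 held a mouse whose gap to its nearest neighbour exceeded Dixon's 95% critical value. The genes were named from these same values, so the nominal rate of 1 in 20 does not apply to them. Of the 20 flagged groups, 16 were control mouse 1 among the 5 controls. Over all genes tested, that mouse was above all 9 others in 34.6% and below them in 18.6%. In that mouse Cyp2c55 was at 13.05, Cyp2c65 at 12.13, Cyp2d26 at 10.64, Cyp2d34 at 8.31, Cyp2s1 at 8.81 and Cyp4b1 at 10.78, all above the other controls. Cyp1b1 was at 4.45, Cyp3a25 at 4.21 and Cyp4v3 at 7.40, all below them. Among the partner genes the same mouse was low for Abcc2 (3.52) and Abcg2 (10.14), and high for Adh1 (10.86), Akr1c13 (11.07), Cd36 (8.60), Cyp39a1 (7.59) and Ppargc1a (8.60).

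Stressed mouse 4 stood apart among the 5 stressed mice for Cyp2d34, at 5.52, and for Tbxas1, at 5.17, the lowest of its group. Among the 4 other controls, mouse 3 stood apart for Alox15, at 4.68, and for Cyp39a1, at 6.03.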

How the results depend on the processing

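With 10 arrays, no alternative called a member, and the most genes called were 109 of 13666, without control mouse 1. The count of members at an unadjusted p under 0.05 went from 2 to 4 without a filter, 10 with array weights, 7 with the large intestine marker mean as covariate, 5 with the 3' to 5' ratio as covariate and 6 with the replicate block, and from 1 to 10 when each mouse was left out, the highest without control mouse 1. The share of all genes at that p was 7.82% in the reported fit, 7.72% without a filter, 16.0% with array weights, 14.1% with the large intestine covariate, 7.39% with the ratio, 7.40% with the block and 18.0% without control mouse 1. Without a filter 27 of 56 members had a higher mean, against 8437 of 18193 genes. The median difference was 0.39 with the lowest 60 percent of probe sets out, against 0.016 over all genes. Without control mouse 1, 1 member (Cyp2d26) was called with array weights, as were 146 of 13666 genes. The replicate block also called 1 (limma adjusted p 0.0312), and 95 of 13666 genes. Stressed mouse 1 adds nothing to that fit because its partner is left out. With a further mouse left out 0 to 1 members were called, the 1 without stressed mouse 2, where 154 of 13666 genes were. The count at an unadjusted p under 0.05 then ran from 5 to 12, against 12.8% and 17.7% of all genes in those 2 fits. It was 13 with array weights, 13 with the 3' to 5' ratio and 14 with the block, against 17.5%, 16.6% and 15.8% of all genes. Without a filter 30 of 56 members had a higher mean, against 9064 of 18193 genes. Same-numbered mice did not deviate together (correlations from -0.30 to 0.28), so the numbers were not taken as pairs.

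Directions that turned with 10 arrays were those of genes in which control mouse 1 stands far off, and the cause was not tested. With array weights Cyp1b1 was at -0.12, Cyp2d34 at 0.019, Cyp2s1 at 0.10, Adh1 at 0.25 and Cyp39a1 at 0.13. With the large intestine covariate Cyp1b1 was at -0.000798, Cyp2s1 at 0.089, Adh1 at 0.16 and Cyp39a1 at 0.17, and with the 3' to 5' ratio Abcg2 was at 0.13. When each mouse was left out the differences ran from -0.11 to 0.28 for Cyp1b1, -0.23 to 0.87 for Cyp2c65, -0.91 to 0.061 for Cyp2d34, -0.093 to 0.12 for Cyp2s1, -0.15 to 0.49 for Cyp4b1, -0.36 to 0.062 for Abcg2, -0.28 to 0.32 for Adh1, -0.013 to 0.32 for Cd36 and -0.14 to 0.25 for Cyp39a1. Without control mouse 1 the difference of Cyp2d34 ran from -0.11 to 0.18. Also without control mouse 1, limma called Abcb1a without control mouse 5 (adjusted p 0.0433) or stressed mouse 2 (0.0459), and Fmo5 with an intensity trend and robust prior (0.0476) or without stressed mouse 2 (0.0308). The replicate block called Abcb1a (0.0189), Abcc2 (0.0136) and Fmo5 (0.0242). Values near the floor lie close to background and have little range to fall.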
